A study of Rattus norvegicus with 18 samples.

Results

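DNA methylation was compared between all 7 rats that had seizures and all 11 sham rats of a series on 2 models of acquired epilepsy, so that all 18 rats of the series entered 1 comparison. The seizure rats were the 4 kindling rats and the 3 kainic acid rats labelled with 3 class V seizures, the stage with rearing and falling on the behavioural scale. The sham rats were the 4 of the kindling model and the 7 of the kainic acid model. The animals were adult male Sprague-Dawley rats, an outbred stock, and 24 hours had passed since the last seizure when the hippocampi of the seizure rats were taken. In kindling, electrodes in the hippocampus delivered repeated stimulation until the rat was fully kindled. In the other model, rising doses of kainic acid, an agonist of a class of glutamate receptors, were injected systemically to bring on status epilepticus after electrodes had been implanted. The sources used here do not give what the sham rats of each model underwent. The series title asks what both models share. The comparison therefore kept the model as a covariate, and a difference between the models did not count as one between seizure and sham rats.

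Methylation of cytosines that precede a guanine (CpG sites) is laid down and kept by DNA methyltransferases and removed through TET enzymes. Most CpG sites of the mammalian genome are methylated, whereas dense groups of them, the CpG islands found at many promoters, are mostly free of it. In neurons, seizure activity has been studied as a stimulus that can alter methylation at activity-regulated genes. Reduced representation bisulfite sequencing cuts DNA at CCGG and therefore samples such dense regions preferentially. The level of a cytosine is the share of its reads that kept a C after bisulfite treatment. Whole left hippocampus was used, so a change of methylation within cells and a change in the mix of cells cannot be told apart.

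Of 2330883 cytosines in the table, 2279082 lay on the 20 autosomes and were used. They were averaged in tiles, windows of 1000 bp without overlap, and 147493 tiles held at least 3 measured cytosines. Tiles are described here by their mean level over the 18 rats (under 10%, 10 to 90% and over 90%) and by their density, the number of measured cytosines on both strands (3 to 9, 10 to 29 and 30 or more). That number counts what was sequenced and is not the CpG density of the genome sequence. No read counts came with the levels, and their depth is unknown. The share of autosomal cytosines with a level of exactly 0 differed between rats. It was lowest in kindling seizure rat 1, at 8.83%, and highest in kindling sham rat 4, at 25.3%. The difference, seizure minus sham, was -3.86 points with the model as covariate (two-sided exact permutation test within the models, p = 0.104, n = 7 and 11).

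No tile changed past the threshold. With the model as covariate, limma called 0 of 82233 tiles tested (0%) at a Benjamini-Hochberg adjusted p under 0.05, and the smallest adjusted p was 0.992. The tested tiles were those whose level ranged over at least 5 percentage points among the 18 rats. At an unadjusted p under 0.05 there were 3694 tiles (4.49%). Seizure rats were higher in 2543 of these (3.09%) and lower in 1151 (1.4%). With each rat centred on the median of its tiles in each level class, the split turned to 1450 higher and 2022 lower. Under the other settings of tile length, filter, scale and covariates, limma also called 0 tiles, except that 1 tile was called with no filter on the range. At single cytosines, 0 of 772656 with a range of at least 10 points were called (0%). The smallest adjusted p of limma was 0.376 there, and 36041 cytosines (4.66%) had an unadjusted p under 0.05, 23149 (3%) higher and 12892 (1.67%) lower.

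The intervals show which sizes of difference these rats could and could not exclude. The median distance from a tile's difference to either end of its 95% interval was 2.81 points. The whole interval lay within 5 points of 0 in 68.6% of tested tiles, within 10 points in 95.2% and within 20 points in 99.7%. The median size of the difference was 0.931 points. Within groups, the median SD of a tile was 2.70 points in kindling sham, 2.59 in kindling seizure, 2.40 in kainic acid sham and 2.09 in kainic acid seizure rats. A single cytosine was measured less finely, with a median distance of 5.49 points.

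Although no tile was called, most tiles leaned the same way. The mean level over all 147493 tiles was 68.6% ± 0.287 (SD, n = 4) in kindling sham and 68.8% ± 0.295 (SD, n = 4) in kindling seizure rats. In the kainic acid model it was 68.6% ± 0.189 (SD, n = 7) in sham and 68.8% ± 0.158 (SD, n = 3) in seizure rats. The groups overlapped, with sham rats from 68.2 to 68.8% and seizure rats from 68.5 to 69.1%. The difference was 0.248 ± 0.112 (SE) points, with p = 0.0465 in the two-sided exact permutation test of 8400 arrangements within the models (n = 7 and 11). Within kindling it was 0.233 points (exact p = 0.286, n = 4 and 4), and within kainic acid 0.262 points (exact p = 0.0833, n = 3 and 7). Without any 1 of kindling sham rats 2 and 4, kindling seizure rats 1 and 3, kainic acid sham rats 2, 3, 4, 5 and 7, and kainic acid seizure rats 2 and 3 the exact p rose above 0.05, and over all rats left out in turn the difference was 0.189 to 0.295 points. With the share of cytosines at 0 as a covariate, the difference was 0.141 points. With the level of the dense tiles under 2% as a covariate, it was 0.113 points. Both measures were taken from the same levels as the result, and the part of either in it was not tested further.

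**Figure D1:**
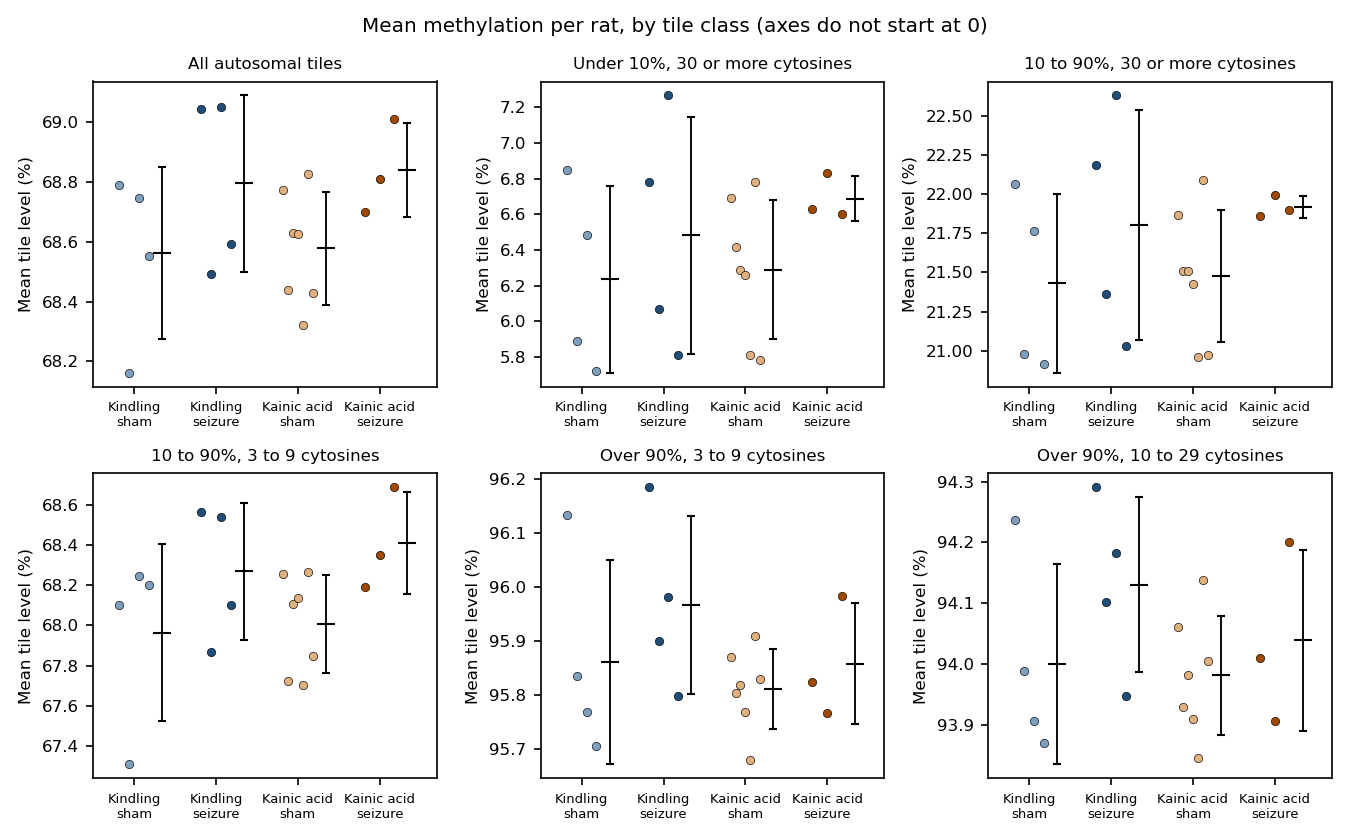
Mean methylation level of each rat (percent, vertical axes that do not start at 0) over all autosomal tiles and over 5 classes of level and density, with the group mean and SD beside the points. Groups overlapped in every panel; in dense tiles under 10% the 7 seizure rats spanned 5.81 to 7.27% and the 11 sham rats 5.72 to 6.85%.

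The lean toward higher levels was most uniform in dense tiles of low and middle level. Among the 7548 tiles under 10% with 30 or more cytosines, the class that holds island-like sequence, 93.2% were higher in seizure rats, against 62.5% of all tiles. The difference was small, with a mean of 0.324 points, and 75.97% of these tiles had the same sign in both models: 73.8% were higher and 2.21% lower in both. Taken alone, 80.9% were higher in kindling and 90.7% in kainic acid. Leans this uneven bring a high share of the same sign by themselves, so that share does not show agreement tile by tile. Only 55 of these tiles (0.729%) varied by 5 points or more among the rats and entered the limma test. In the 8282 tiles of 10 to 90% with 30 or more cytosines, 90.4% were higher, by 0.406 points on average. The levels of the 7548 low dense tiles were 6.85, 5.89, 6.48 and 5.72% in kindling sham rats 1 to 4 and 6.78, 6.07, 7.27 and 5.81% in kindling seizure rats 1 to 4. In the kainic acid model they were 6.69, 6.42, 6.29, 6.26, 5.81, 6.78 and 5.78% in sham rats 1 to 7, and 6.63, 6.83 and 6.60% in seizure rats 1 to 3. Kindling rats of both kinds lay at both ends, while the 3 kainic acid seizure rats sat in the upper part of their model's range.

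Such uneven shares also arose between rats of the same group. In the low dense tiles, kindling sham rat 1 was above the mean of the other kindling sham rats in 92.9% of tiles, and kindling sham rat 4 in 6.57%. Kindling seizure rat 3 was above its own group in 94.8%, and kainic acid sham rat 7 in 4.21%. The share of 93.2% lay inside these values, but it comes from 7 seizure rats against 11 sham rats. A single rat spreads more than a mean over several rats, so these shares cannot decide whether 93.2% is unusual. The class differences themselves did not pass: with 15 classes, the adjusted exact p was 0.230 for the low dense and for the middle dense tiles (n = 7 and 11), and 0.207 to 0.272 over all 15. With the share of cytosines at 0 as a covariate, the difference was -0.0056 points in the low dense tiles and 0.0526 in the middle dense tiles. It was -0.0132 and 0.0438 points with the level of dense tiles under 2% as the covariate, which for the low dense class is a subset of its own tiles. The share of zeros, too, was taken from the same levels, these tiles included. For the low dense class, neither fit can therefore separate the covariate from the level itself.

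**Figure D2:**
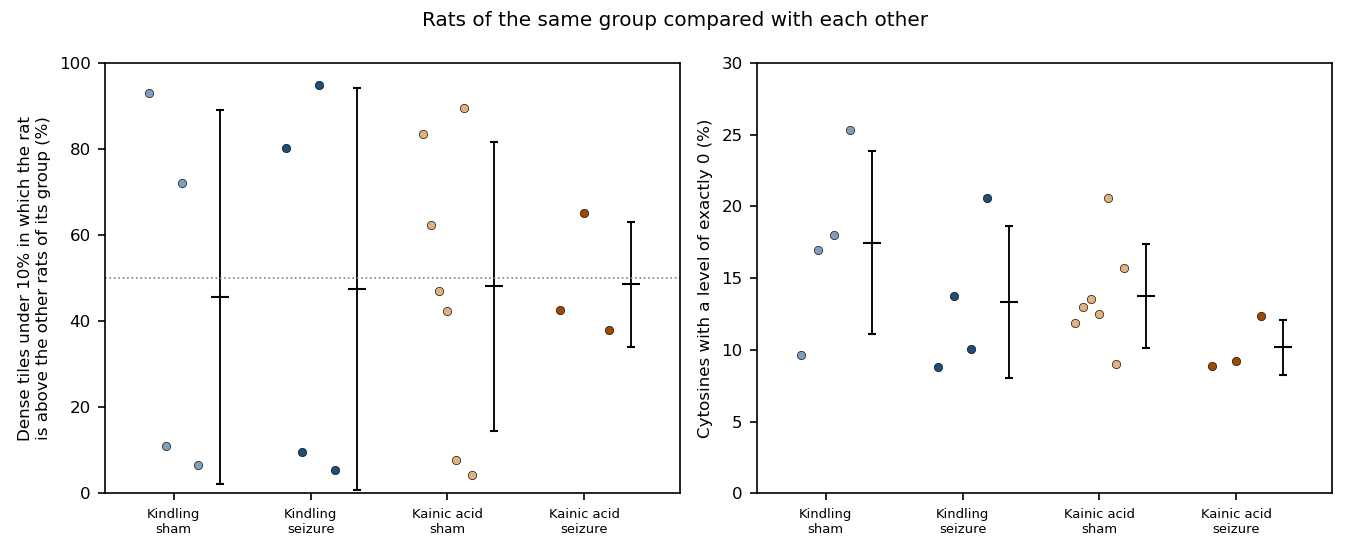
Left, the share of the dense tiles under 10% in which each rat lay above the mean of the other rats of its group; right, the share of autosomal cytosines with a level of exactly 0, both in percent, with the group mean and SD beside the points. Kindling seizure rats spread from 5.47 to 94.8% on the left, and kindling sham rats from 9.66 to 25.3% on the right.

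Sparse tiles of middle level had a difference of like size that was less uniform. It changed less with the share of zeros as a covariate, a contrast that was not tested. In the 48400 tiles of 10 to 90% with 3 to 9 cytosines, the mean difference was 0.355 points, 59.2% of tiles were higher, and 51.1% had the same sign in both models. The unadjusted exact p was 0.0318 and the adjusted p 0.207 (n = 7 and 11). The value was 0.285 points with the share of zeros as a covariate and 0.219 with the level of dense tiles under 2%. Tiles over 90% differed least. In the 41743 of these with 3 to 9 cytosines the difference was 0.0756 points and 54.0% were higher, and with the share of zeros as a covariate it was -0.0125.

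Finer steps of level showed where direction and size parted. In tiles with 30 or more cytosines, the share higher in seizure rats was 85.5% at a level under 2%, 94.6% at 5 to 10%, 94.5% at 10 to 25%, 75.7% at 25 to 50%, 70.9% at 50 to 75% and 57.1% over 90%. The mean difference of the same tiles was largest at 50 to 75%, at 0.665 points over 351 tiles. Kindling accounted for more of that value, with 0.917 points against 0.425 in kainic acid, a gap that was not tested. In tiles with 3 to 9 cytosines the share higher stayed between 54.0 and 71.5% at every step. Dense tiles thus had the more uniform sign at low levels, and the sparser tiles the less uniform. Sparse tiles also spread more. At 5 to 10%, the 10th to 90th percentile of the difference was -1.36 to 1.66 points with 3 to 9 cytosines. It was 0.0779 to 0.613 with 30 or more. A sparse tile averages fewer cytosines, and the part of this in the contrast was not tested.

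**Figure D3:**
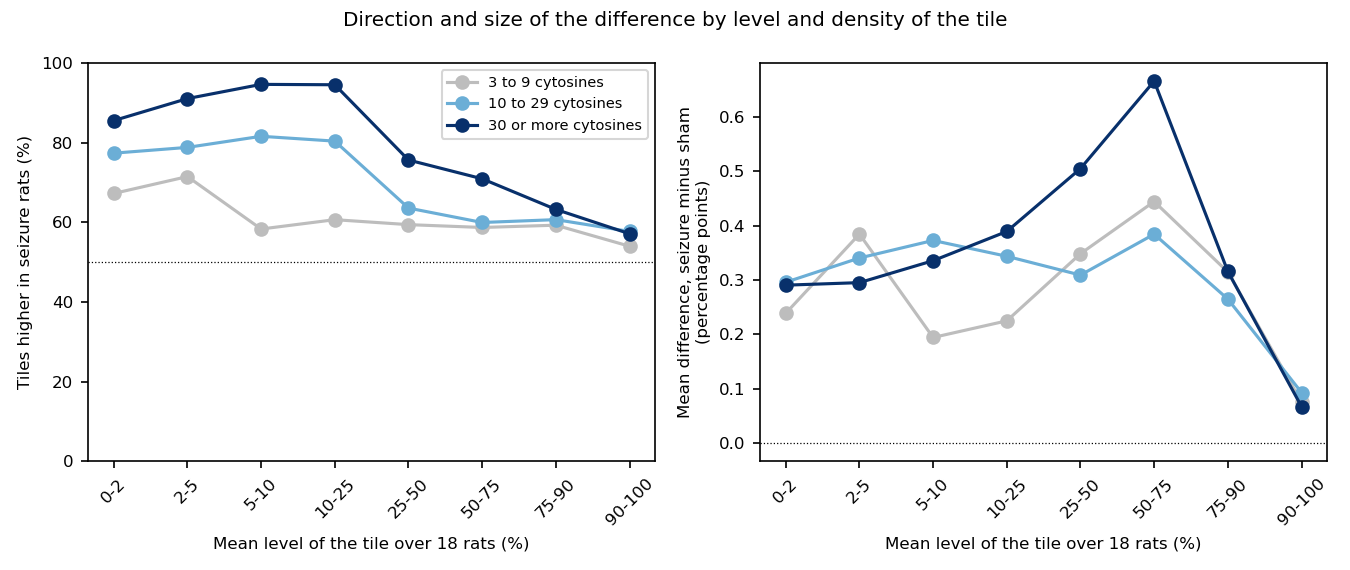
Share of tiles higher in seizure rats (left, percent) and mean difference, seizure minus sham (right, percentage points), by the mean level of the tile over 18 rats, for 3 classes of density. The share was highest, at 94.6%, in tiles of 5 to 10% with 30 or more cytosines, and the mean difference highest, at 0.665 points, in tiles of 50 to 75% with 30 or more.

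The position of a tile relative to low dense tiles moved with the share of higher tiles more than with the size of the difference. Tiles 1 to 2 kb from the nearest low dense tile, the distance of CpG island shores, differed by 0.369 points and 78.2% were higher. At 3 to 10 kb the difference was 0.253 points with 61.1% higher, and beyond 10 kb it was 0.236 points with 59.8% higher. After adjustment over the distances, low dense tiles included, none passed the exact permutation test (adjusted p 0.124 to 0.178, n = 7 and 11). The mean level rose with distance, from 6.39% in the low dense tiles to 68.3% at 3 to 10 kb and 74.8% beyond. The part of level in the contrast between distances was not tested. All 20 autosomes had a higher mean in seizure rats, by 0.204 to 0.286 points. These means come from the same rats, so they are not 20 independent results. No autosome passed the exact permutation test after adjustment over the 20 (adjusted p 0.0784 to 0.104, n = 7 and 11). Without kindling sham rat 1, however, 17 autosomes passed, and without kindling seizure rat 2, 19 did.

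Direction was then compared between the models, which share no rats. Of all tiles, 54345 were higher and 25437 lower in both models, which makes 54.1% of the same sign. Taken alone, 58.8% of tiles were higher in kindling and 60.8% in kainic acid, and such leans by themselves raise the share. Among tiles that varied by 5 points or more, the share of the same sign was 51.0%. It fell as the difference asked for in each model grew: 51.4% at 1 point, 50.3% at 2 points, 43.0% of 1352 tiles at 5 points and 25.5% of 141 tiles at 10 points. Of those 141 tiles, 19 were higher in both models and 17 lower in both, while 58 were higher in kindling and lower in kainic acid and 47 the reverse. Among these 141 tiles opposite signs were thus more frequent. They were sparse tiles, with a median of 4 cytosines both in the 36 of the same sign and in the 105 of opposite sign. The interaction of model and seizure was called in 0 of the 82233 tiles (0%; smallest adjusted p of limma 0.493), with 3928 (4.78%) at an unadjusted p under 0.05. The kainic acid difference was above that of kindling in 1897 of these (2.31%) and below it in 2031 (2.47%). That count of 0 rested on single rats: 7 tiles were called without kindling sham rat 1, 3 without kainic acid seizure rat 1, 3 without kainic acid seizure rat 2, 1 without kindling seizure rat 3 and 1 without kainic acid sham rat 4. No tile is therefore described as particular to a model.

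**Figure D4:**
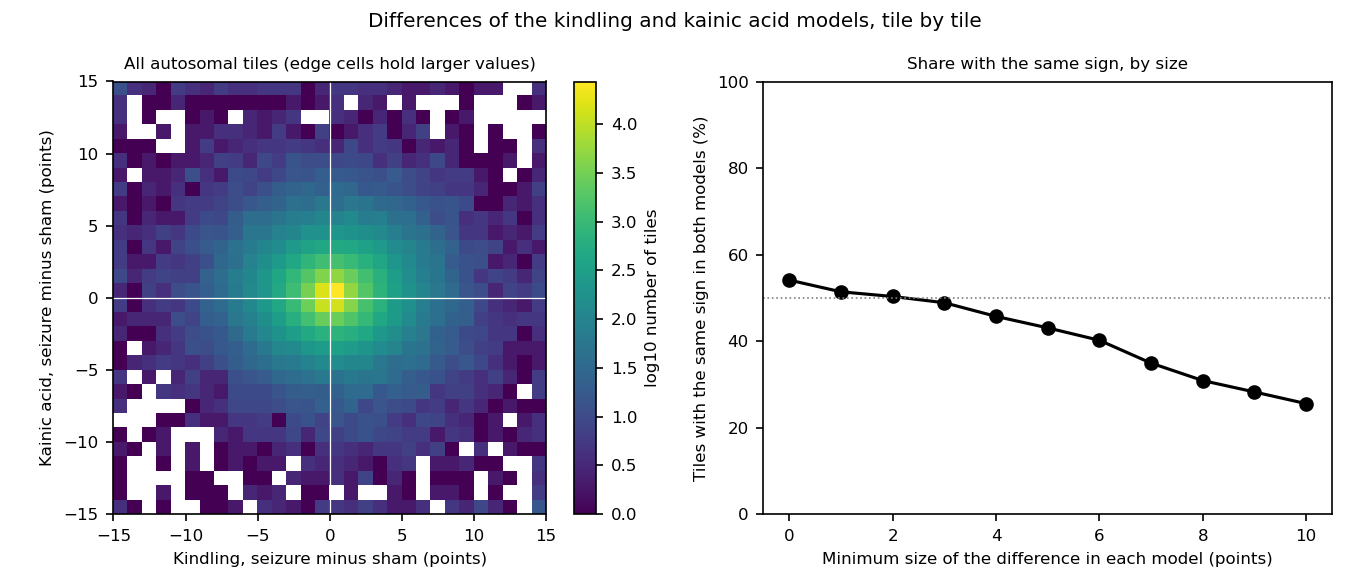
Left, all autosomal tiles by their difference in kindling (horizontal) and in kainic acid (vertical), in percentage points, coloured by the log10 number of tiles, with edge cells holding larger values; right, the share of tiles with the same sign in both models (percent) by the minimum size asked for in each. The share fell from 54.1% of all tiles to 25.5% of the 141 tiles with 10 points or more in each model.

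A stricter description asks that the rats do not overlap. In 7 tiles (0.00475% of all) every seizure rat lay above every sham rat, and in 1 tile (0.000678%) below. When the condition was set within each model and in the same direction, 17 tiles were higher (0.0115%) and 11 lower (0.00746%). Of the 8400 arrangements of the labels within the models, 1 puts every seizure rat above, a fraction of 0.000119, and 1 below. Neither share exceeded that fraction, so these tiles are given as values and not as results. Of the 17, 8 had a level under 10% and 9 of 10 to 90%, and of the 11 lower tiles 4 had a level of 10 to 90% and 7 over 90%. Of all tiles, 8.67% had a level under 10%, 54.9% of 10 to 90% and 36.4% over 90%. Leaving out kindling seizure rat 4 raised the count over all rats from 8 to 39 tiles, and other rats left out gave 8 to 18. With a rat left out this count can only stay or rise, and the fraction of 0.000119 does not apply to it.

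The tile called when no filter on the range was set lay on chromosome 4 (rn6), from 161999001 to 162000000, with 4 cytosines. It was listed at 0 in 10 sham rats and at 0.556% in kindling sham rat 3. The 4 kindling seizure rats had 2.22, 1.89, 1.52 and 1.56%, and the 3 kainic acid seizure rats 0.962, 1.37 and 0.926%. All seizure rats lay above all sham rats. The difference was 1.37 ± 0.155 (SE) points with an adjusted p of 0.00966 in limma over 147493 tiles. The whole range over 18 rats was 2.22 points, so the filter of 5 points left this tile out of the main test. All its levels lay near 0, and without read counts it is unknown how many methylated reads they rest on.

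The 5 other higher tiles without overlap, apart from tile H2 described further on, had margins that were small beside their differences. The tile on chromosome 3 from 129012001 to 129013000, with 8 cytosines, had 19.5, 17.5, 12.6 and 18.9% in kindling sham rats and 22.7, 22.4, 22.1 and 25.6% in kindling seizure rats. Kainic acid sham rats had 17.3, 17.9, 19.7, 18.2, 18.2, 16.1 and 20.77%, and the 3 seizure rats 20.87, 20.98 and 20.85%. Kainic acid sham rat 7, at 20.77%, was thus just below the lowest seizure rat of its model. The tile on chromosome 17 from 6303001 to 6304000, with 8 cytosines, was at 92.3 to 93.1% in all 7 seizure rats, whereas sham rats stood either near 80%, as kindling sham rats 2 to 4 and kainic acid sham rats 6 and 7 did, or between 88.5 and 92.3%. The tiles on chromosome 1 from 15413001, chromosome 9 from 10536001 and chromosome 20 from 20713001, with 28, 43 and 18 cytosines, differed by 0.902, 0.974 and 0.844 points. These 3 tiles ranged over 1.76 to 2.17 points among all rats.

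The 10 higher and 10 lower tiles of smallest p, numbered H1 to H10 and L1 to L10, are given as values and not as calls, since each had an adjusted p of 0.992 in limma. Each kept its direction with any 1 rat left out and on the log2 odds scale. None passed the interaction test after adjustment. Coordinates are those of the rn6 build named in the submitters' processing notes, and no gene names are given because no rn6 annotation was used here.

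Tile H2, on chromosome 9 from 15608001 to 15609000, had 20 cytosines, the most among the 20 named tiles. Its level was 31.9, 31.0, 30.2 and 32.4% in kindling sham rats 1 to 4 and 40.1, 33.7, 37.9 and 35.2% in kindling seizure rats 1 to 4. In kainic acid it was 29.8, 32.2, 29.99, 29.3, 32.5, 29.8 and 32.6% in sham rats 1 to 7, and 35.4, 41.4 and 34.2% in seizure rats 1 to 3. Every seizure rat lay above every sham rat, with the highest sham rat at 32.6% and the lowest seizure rat at 33.7%. The difference was 5.74 ± 1.18 (SE) points, at 5.35 in kindling and 6.11 in kainic acid. It was spread over the tile, as 19 of 20 cytosines were higher, by 4.78 points on the plus strand and 6.71 on the minus strand.

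Tile L1, on chromosome 2 from 258583001 to 258584000, was the lower tile without overlap. Its 3 cytosines, all on the minus strand, had a mean of 81.9, 86.2, 85.7 and 95.6% in kindling sham rats and 76.4, 71.8, 66.5 and 73.1% in kindling seizure rats. The kainic acid sham rats had 82.8, 88.0, 79.5, 84.3, 77.2, 84.4 and 84.8%, and the seizure rats 74.9, 76.9 and 74.1%. The margin was narrow, since kainic acid sham rat 5 at 77.2% lay beside kainic acid seizure rat 2 at 76.9%. The difference was -11.5 ± 2.04 (SE) points, at -15.4 in kindling and -7.71 in kainic acid.

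**Figure D5:**
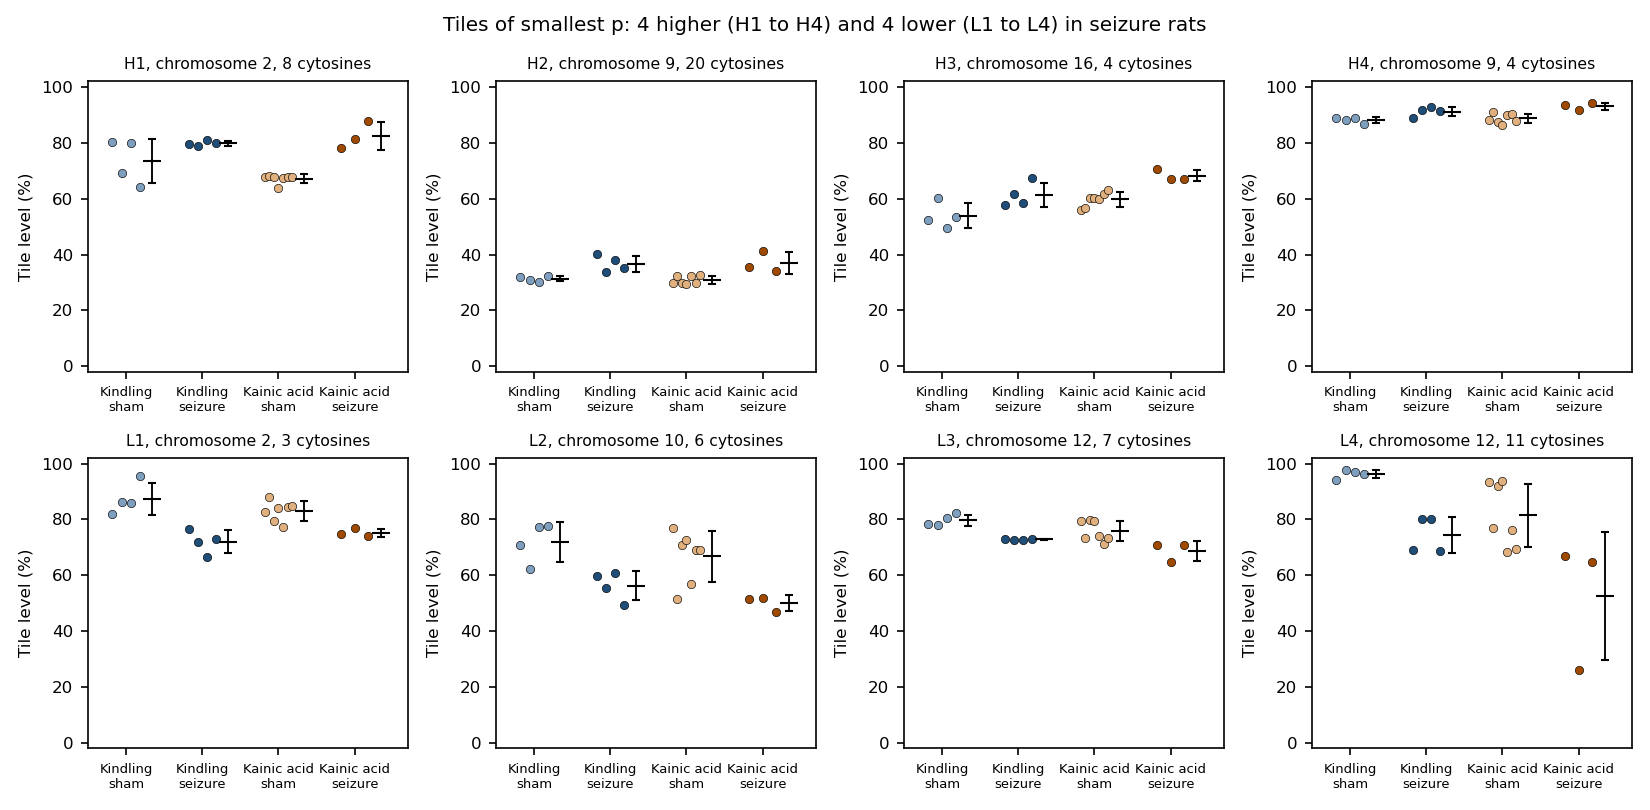
Level of each rat (percent, axes from 0 to 100) in the 4 higher and 4 lower tiles of smallest p, with the group mean and SD beside the points. In tile H2 every seizure rat lay above every sham rat and in tile L1 below; in tile L4 kainic acid seizure rat 2 stood at 26.0%.

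Tile L2, on chromosome 10 from 44431001 to 44432000, and tile H3, on chromosome 16 from 75893001 to 75894000, moved alike in both models but overlapped. In kindling, L2 was 71.9% ± 7.15 (SD, n = 4) in sham rats against 56.3% ± 5.24 (SD, n = 4) after seizures. In kainic acid it was 66.8% ± 9.09 (SD, n = 7) against 50.1% ± 2.79 (SD, n = 3). Its 6 cytosines were all lower, and the tile's difference was -16.2 ± 3.20 (SE) points. Kainic acid sham rats 2 and 5, at 51.6 and 56.9%, lay among the seizure rats. H3 was 54.0% ± 4.57 (SD, n = 4) in sham rats against 61.3% ± 4.40 (SD, n = 4) after seizures in kindling. The kainic acid levels were 59.8% ± 2.59 (SD, n = 7) against 68.2% ± 1.98 (SD, n = 3). All 4 of its cytosines were higher, and the kainic acid seizure rats, at 67.0 to 70.5%, lay above every sham rat.

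Tile H1, on chromosome 2 from 30017001 to 30018000, differed by 10.9 points, but its cytosines did not move alike: 5 of 8 were higher and 3 lower, with the largest difference of a cytosine at 41.6 points. Tile L3, on chromosome 12 from 23093001 to 23094000, was uneven too. Of its 7 cytosines, 3 were higher and 4 lower, and 1, at position 23093257, differed by -43.0 points. The tile's difference of -6.98 points therefore was mainly that of 1 cytosine. The 6 cytosines of L2, by contrast, ranged from -33.7 to -4.30 points.

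The remaining named tiles were H4 to H10 on chromosomes 9, 8, 19, 5, 5, 2 and 10, with differences of 3.73 to 11.002 points, and L5 to L10 on chromosomes 11, 17, 1, 11, 9 and 10, with differences of -10.7 to -2.37 points. In H4, H6 and H7, 6 of 7 seizure rats lay above every sham rat, and in L6, 5 of 7 lay below. H8, on chromosome 5 from 35829001 to 35830000, was the only named tile of low level, at 1.76% ± 1.33 (SD, n = 4) in sham rats against 5.85% ± 2.08 (SD, n = 4) after seizures in kindling. Its kainic acid levels were 3.08% ± 1.96 (SD, n = 7) against 6.80% ± 1.11 (SD, n = 3). L5, L7 and L9 were the named tiles of high level, with group means of 92.6 to 98.8%. The strands moved alike in H1 (10.5 and 11.3 points) and unlike in H9, with 2.53 points on the plus strand and 15.2 on the minus strand. The minus strand of H9 held only 1 of its 3 cytosines. Most named tiles had no tile with 3 cytosines beside them. Of the 7 neighbours that were measured, 4 had the opposite sign, among them 1 beside L6 at 1.77 points and 1 beside L9 at 2.08. The neighbour of L10, at -3.61 points, had the sign of its tile.

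Of single cytosines, the 5 of smallest p in each direction are given as values. On chromosome 10, position 97209941 was listed at 0 in all 11 sham rats, at 3.7, 4.17, 5 and 3.12% in kindling seizure rats 1 to 4 and at 10.5, 9.09 and 9.09% in the kainic acid seizure rats. No seizure rat was at 0 there, and the difference was 6.85 ± 1.10 (SE) points (adjusted p = 0.543 in limma). Without read counts it is unknown how many methylated reads these low levels rest on. Position 60339948 of chromosome 3 was the lower counterpart outside chromosome 12, with 89.8 to 95.7% in sham rats and 75.5 to 86.0% in seizure rats, which did not overlap. Its difference was -10.8 ± 1.60 (SE) points (adjusted p = 0.376 in limma). Position 6791490 of chromosome 20 had 71.9 to 83.8% in sham and 82.0 to 90.2% in seizure rats, with a difference of 10.5 points. Position 152792819 of chromosome 4 differed by 18.8 points and position 154668139 of chromosome 5 by 7.57 points. The cytosine of tile H1 with the largest difference, at position 30017702 of chromosome 2, had 51.9 and 47.6% in kindling sham rats 1 and 3, at most 7.69% in the other 9 sham rats, 44.2 to 57.1% in 6 seizure rats and 82.4% in kainic acid seizure rat 3. The other 4 lower cytosines all lay on chromosome 12.

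Around these sites, 1 stretch of chromosome 12 was singled out after its values were seen. Of the 100 cytosines of smallest p, 14 lay between positions 22000001 and 24000000, which held 0.263% of the cytosines tested, and no other such stretch of equal length held more than 2. Between 22900001 and 23700000, 13 of 770 tested cytosines had an unadjusted p under 1e-04, with 769687 bp from the first to the last. They were not separate sites, since many lay in 1 run from 23659012 to 23659032. Positions 22916606 and 22916607 are the 2 strands of 1 CpG, as are 23686292 and 23686293. These counts therefore hold linked cytosines and overstate the number of sites. All 13 were lower in seizure rats, by 33.7 to 48.9 points. Tiles L3 and L4 belong to this stretch. With the model as the only covariate limma called none, and the smallest adjusted p was 0.376.

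The same rats were high and low at each of these sites. At position 23686292 the level was 100% in all 4 kindling sham rats and 50, 40.7, 57.9 and 41.4% in kindling seizure rats 1 to 4. In kainic acid sham rats 1 to 7 it was 98.1, 50, 96.2, 97.9, 65.6, 61.5 and 52.0%, and in seizure rats 1 to 3 it was 38.3, 0 and 48.9%. The rats thus fell at 3 steps, near 100%, near the middle and near 0, and kainic acid sham rats 2, 5, 6 and 7 stood with the seizure rats. At position 22916606 the kindling sham rats had 78.6, 78.4, 79.8 and 81.6% and the kindling seizure rats 41.8, 42.5, 42.9 and 46.7%. The kainic acid sham rats had 82.6, 50.6, 79.3, 77.7, 36.4, 38.7 and 45.2% there, and the seizure rats 32.3, 2.69 and 32.7%. Kainic acid seizure rat 2 was again the lowest, and the same 4 kainic acid sham rats were low. In tile L4, on chromosome 12 from 23659001 to 23660000, that rat had 26.0% against 64.7 to 80.3% in the other seizure rats, and 10 of the 11 cytosines, all on the plus strand, were lower. The difference of L4 was -25.4 ± 5.13 (SE) points, and -19.1 without that rat, with sham rats from 68.5 to 97.7%. Over the whole stretch, the sites described above included, 65 of the 770 tested cytosines (8.44%) had an unadjusted p under 0.05 in limma. The share among all tested cytosines was 4.66%. Whether the other cytosines of the stretch moved with these sites was not tested.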

How the data were processed

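The authors deposited a methylation fraction (beta value) per cytosine and rat, each strand on its own row, per the file header. Per the submitters' processing notes, the tools were Bismark, Bowtie2, methylKit, Trim Galore and FastQC and the build rn6, without their roles. The labels and the header give no coverage minimum. No value was missing, and 0 columns were left unused. Rats were grouped by the labels, which give each sample as a separate animal. Fractions were averaged per tile and tested with limma 3.58.1 (R 4.3.3) as fractions, with the model as covariate, a variance prior that follows the mean, and 15 residual degrees of freedom. Class means were tested by exact permutation within the models, whose smallest p is 0.000119, with Python 3.11.15, numpy 2.4.6, pandas 2.3.3 and matplotlib 3.10.9. Count tests and intervals for single values were not run, because no read counts were used. The limma fit was tested on simulated data. Named tiles were the 10 of smallest p in each direction, and named cytosines the 5. The comparison, classes and rules were chosen with earlier results of these data known. Alternatives covered tile length, filters, the log2 odds scale (levels held between 1 and 99%), covariates, weights, the replicate block and each rat left out. The lists of genes and cell type markers planned for start sites were not used, because no rn6 annotation was used here, so the tissue was not checked by markers.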

Additional observations from a re-analysis of the deposited data

Results flagged for a closer look

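In 5 of 117 groups of values examined, the highest or lowest rat stood apart from the other rats of its group by more than Dixon's 95% limit, and chance gives about 1 in 20. Kindling sham rat 2 had 67.3% in tiles of 10 to 90% with 3 to 9 cytosines, below the other kindling sham rats. Kainic acid sham rat 4 was the low rat in tile H1, at 63.9%, and in tile L7, at 92.3%. Kindling sham rat 4 was the high rat in tile H10, at 72.8%. Kindling seizure rat 1 was the high rat in tile L5, at 97.7%.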

How the results depend on the processing

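Limma called 0 tiles for seizure against sham in all settings tried except 1: with no filter on the range it called 1 tile. The other counts of calls were 0 for cytosines too, except 5 with the replicate block, all lower and all on chromosome 12. The block called 0 tiles. The replicate numbers did not pair the rats, since rats of the same number correlated at -0.113 to 0.156 in kindling and -0.0436 to -0.0176 in kainic acid. Among the seizure rats, only kindling seizure rat 1 correlated best with the sham rat of its own number. With 1 rat left out, the interaction was called in 0 to 7 tiles. The mean difference over all tiles kept its sign in every setting but lost the call when weighted by cytosines (0.302 points), in tiles with 10 or more cytosines (0.283 points), in kindling alone (0.233 points) and in kainic acid alone (0.262 points), and was 0.189 to 0.295 points with 1 rat left out. The number of autosomes passing was 0 to 19 with 1 rat left out. The share of tiles with the same sign was 51.0% with a range of 5 points or more and 50.3% with 2 points or more in each model, and 49.6 to 56.8% with 1 rat left out. Tiles without overlap numbered 4 with a range of 5 points or more. With 1 rat left out they numbered 8 to 39, a count that can then only stay or rise. Where a rat or setting changed a value, the cause was not tested. The 2 settings with the level of dense tiles under 2% as a covariate or with centring, the autosomes and the tiles without overlap with rats left out, and the chromosome 12 stretch were added after seeing the data. Depth is unknown, which limits all values.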
